A study of Homo sapiens with 4 samples.

Results

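The 44 protein-coding genes with a collagen symbol (COL, a number, A, a number, such as COL1A1) were taken from GENCODE release 44 lifted to hg19, and each promoter reached 1000 bp to both sides of the canonical transcript's start. They were 44 of 19881 protein-coding promoters handled in the same way, chosen by symbol without a threshold on any measured value. A new peak is a region that the authors called in cells with the wild type EpiEditor as new relative to untreated cells. It was counted at a promoter when at least 1 bp overlapped. Genomic DNA of HEK293 cells, a transformed human embryonic kidney line, was measured in 4 conditions with 1 library each. The conditions were Untreated cells and, at day 3 after transfection, cells with Ab-3A3L (WT), Ab-3A3L (K844E) or Ab-3A3L (R887E). Ab-3A3L is an antibody fragment joined to the catalytic parts of the DNA methyltransferases DNMT3A and DNMT3L, and K844E and R887E are substitutions in its DNMT3A part. All 3 transfected groups also carried dCas9 with a SunTag, the peptide array that the antibody fragment binds, and an sgRNA to the ISG15 promoter. They were sorted for the fluorescent reporters of all 3 plasmids. None of the collagen genes is the intended target. Only the list of the Ab-3A3L (WT) library was analysed here, so no value below has a replicate and no difference between conditions could be tested.

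Collagens are secreted or membrane-bound proteins whose chains wind into a triple helix, and they form the fibrils, networks and anchoring structures of the extracellular matrix. Fibrillar collagens give tendon, bone, skin and cartilage their tensile strength, whereas type IV collagen builds the sheet-like network of basement membranes, including that of the kidney glomerulus. The type IV genes lie in head-to-head pairs that share a bidirectional promoter. Methylation of CpGs in promoter CpG islands (CGIs) generally accompanies silencing of the gene, and MBD-seq reads it by enriching sonicated fragments on the methyl-CpG binding domain of MBD2. The series measured DNA only, so whether a collagen gene was expressed in these cells was not measured.

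Example sequences at collagen genes are printed first, from the GRCh37 genome (hg19), 5′ to 3′, in lower case with each CpG in capitals. Each is from a promoter as defined here, except the COL27A1 stretch, which lies further upstream. All lie outside annotated exons of protein-coding genes, and no CGI promoter without a peak is among them. The first are the stretches free of such exons between or beside the starts of the 3 type IV pairs. The pairs share the same head-to-head arrangement. They differ in CpG content, and the COL4A6 and COL4A5 pair also differs in lying on chromosome X. The COL4A1 and COL4A2 stretch (chr13:110959505-110959604, plus strand) held 14 CpGs in 100 bp and lay within a new peak. The COL4A4 and COL4A3 stretch (chr2:228029170-228029339, plus strand) held 12 CpGs in 170 bp, also within a new peak. The COL4A6 and COL4A5 stretch (chrX:107682768-107683067, plus strand) held 9 CpGs in 300 bp, with no new peak.
COL4A1 and COL4A2: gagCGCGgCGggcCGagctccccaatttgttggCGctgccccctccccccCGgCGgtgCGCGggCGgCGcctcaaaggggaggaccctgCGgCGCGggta
COL4A4 and COL4A3: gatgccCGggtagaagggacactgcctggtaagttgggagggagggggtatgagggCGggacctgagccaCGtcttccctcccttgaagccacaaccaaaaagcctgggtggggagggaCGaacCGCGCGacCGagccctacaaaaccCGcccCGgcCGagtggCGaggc
COL4A6 and COL4A5: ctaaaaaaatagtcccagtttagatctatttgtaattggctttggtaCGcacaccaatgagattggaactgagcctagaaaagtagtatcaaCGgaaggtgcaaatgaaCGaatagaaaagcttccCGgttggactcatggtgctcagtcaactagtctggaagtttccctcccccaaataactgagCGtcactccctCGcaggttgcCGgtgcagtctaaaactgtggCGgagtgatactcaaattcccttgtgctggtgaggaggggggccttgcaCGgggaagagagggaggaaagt

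The others come from genes whose start is not shared. COL27A1 and COL6A6 are shown because they had the highest folds among them. The COL27A1 stretch surrounds its peak summit, upstream of the start (chr9:116916285-116916584, plus strand), and held 44 CpGs in 300 bp. It lies outside the promoter window, which begins at position 116916817. The COL6A6 stretch ends just upstream of its start (chr3:130235721-130236020, plus strand) and held 23 CpGs. Per 100 bp the COL27A1 stretch held 14.7 CpGs and the COL6A6 stretch 7.67, and both genes had a peak.
COL27A1: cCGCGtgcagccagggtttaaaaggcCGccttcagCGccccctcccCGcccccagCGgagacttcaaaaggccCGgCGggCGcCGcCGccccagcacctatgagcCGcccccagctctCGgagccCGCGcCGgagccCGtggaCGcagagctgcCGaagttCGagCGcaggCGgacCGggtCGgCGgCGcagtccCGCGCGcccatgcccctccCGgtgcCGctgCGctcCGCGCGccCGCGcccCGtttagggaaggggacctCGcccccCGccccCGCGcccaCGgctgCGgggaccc
COL6A6: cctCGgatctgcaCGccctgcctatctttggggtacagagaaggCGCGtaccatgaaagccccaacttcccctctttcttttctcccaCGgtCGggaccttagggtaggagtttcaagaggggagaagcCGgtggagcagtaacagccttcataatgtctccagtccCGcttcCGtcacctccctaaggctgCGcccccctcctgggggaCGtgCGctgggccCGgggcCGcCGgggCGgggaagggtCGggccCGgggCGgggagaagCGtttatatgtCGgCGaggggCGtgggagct

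A new peak was present at 21 of the 44 collagen promoters, that is 47.7% (exact 95% binomial interval 32.5% to 63.3%, counting error only). Over all coding promoters the share was 42.1%, inside that interval. All 21 collagen promoters with a new peak had a CGI, as did 8281 of the 8364 coding promoters with one. Of the 30 collagen promoters with a CGI, 21 had a new peak (70.0%, interval 50.6% to 85.3%), beside 57.7% of all coding promoters with a CGI. Of the 14 without a CGI none had a new peak, which allows a share of up to 21.4%, beside 1.50% of all coding promoters without a CGI. Stricter CGI criteria were at least 500 bp, GC of at least 55% and observed/expected of at least 0.65. By these, 16 of 23 collagen promoters with a CGI had a new peak, beside 64.8% of all coding ones. The other collagen promoters with a peak had no CGI by these criteria. When peaks below a fold of 7.45, the median of the list, were left out, 13 collagen promoters kept a peak, beside 25.9% of all coding promoters. A promoter missing from the list is not a measurement of low methylation. DNA that was already methylated in Untreated cells, or signal under the calling threshold (a −log10 q of 2), would both be missing, and their part was not tested.

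The fold listed by the authors at a promoter, taken from its strongest peak, had a median of 9.09 over the 21 collagen promoters (quartiles 6.73 and 11.2, range 3.98 to 15.5). Over all coding promoters with a new peak the median was 8.26 (quartiles 6.21 and 11.0, highest 37.2). Of the collagens, 12 were above and 9 below that median. Because COL4A1 with COL4A2 and COL4A3 with COL4A4 share a peak, the 21 values come from 19 distinct peaks, with a median of 8.72. From each fold and p-value, the number of fragments at the summit and the expected background could be recovered as under the formulas of MACS2. The collagen promoters had a median of 17 fragments (range 10 to 48), equal to the 17 of all coding promoters with a peak. Such numbers limit the precision of a fold. At 9 of the 21 collagen promoters the background was the genome-wide rate of 0.611 fragments, and there 14 to 24 fragments were found. The exact 95% Poisson interval of 14 fragments, at COL15A1, ran from 7.65 to 23.5, and that of 24, at COL4A1, from 15.4 to 35.7. The order of fold among those promoters was therefore not resolved at this depth.

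Fibrillar collagens, the chains of the banded fibrils, had a new peak at 5 of 11 promoters (interval 16.7% to 76.6%), with a median fold of 8.72. In every collagen class the interval held the 42.1% of all coding promoters, so no difference between classes is read. COL27A1, a minor fibrillar chain of cartilage, had the highest fold of the class, 15.5, from 26 fragments over a rate of 0.737. Its promoter carried 3 peaks, each overlapping a CGI of 2565 bp, with folds of 15.5, 13.2 and 5.33. The strongest had its summit at -1382 bp from the start and reached into the promoter with its edge, and the weakest covered the start itself. The fold at this promoter thus depended on the peak chosen.

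COL5A3 and COL5A1 code for chains of type V collagen, which is built into type I fibrils and regulates their diameter. COL5A3 had a fold of 11.8 from 18 fragments over the genome-wide rate, with the summit 82 bp downstream of the start. COL5A1 had a fold of 8.72, but from 48 fragments over a local rate of 4.62, the most fragments of any collagen promoter and a −log10 q of 27.6, beside 17.5 at COL5A3. The ranking of these 2 genes is opposite by fold and by number of fragments.

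COL1A1, a chain of type I collagen, the main protein of bone and tendon, carried 2 peaks at its promoter. The one over the start had a fold of 4.44 (25 fragments over 4.86) and the other, in intron 1 with the summit 701 bp downstream, had a fold of 6.82 (16 fragments over 1.49). COL24A1, a minor fibrillar gene, had a fold of 6.73 at its start. COL1A2, which codes for the partner chain of COL1A1 in type I collagen, had 68 CpGs, no CGI and no new peak, the nearest lying 114706 bp away. The partner genes of this trimer therefore differed in both CGI and peak.

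The other fibrillar promoters had no new peak. COL2A1 and COL11A2, of cartilage fibrils, had CGIs with 125 and 103 CpGs in the promoter, and their nearest new peaks were 40545 and 84538 bp away. COL11A2 lies in a region of chromosome 6 that is also represented on alternative haplotype sequences, to which 5 listed peaks were assigned, and the part of this in its missing peak was not tested. COL3A1, prominent in vessels and skin, COL5A2 and COL11A1 had 14, 22 and 58 CpGs and no CGI.

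Type IV collagens had a new peak at 4 of 6 promoters (interval 22.3% to 95.7%), beside 42.1% of all coding promoters. Their median fold was 12.7. Each of these peaks is shared by a pair and counted for both genes. The median is thus the midpoint of the folds 15.5 and 9.93. COL4A1 and COL4A2, the ubiquitous chains, start 127 bp apart, and a single peak of 1470 bp with 162 CpGs (chr13:110959015-110960484) covered both starts. It had a fold of 15.5 from 24 fragments over the genome-wide rate, higher than at 95.3% of all coding promoters with a peak. COL4A3 and COL4A4, chains of the mature glomerular basement membrane, start 419 bp apart, and a peak of 1094 bp with 106 CpGs (chr2:228028721-228029814) covered both. Its fold was 9.93 from 15 fragments over the same rate. The counting intervals of the 15 fragments (8.40 to 24.7) and the 24 fragments (15.4 to 35.7) overlapped.

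COL4A5 and COL4A6, the pair on chromosome X, start 1416 bp apart. They had 43 and 40 CpGs, no CGI and no new peak, with the nearest one 479091 and 480507 bp from their starts. Of all coding promoters on chromosome X, 8.44% had a new peak, beside 43.7% on the autosomes, so the pair differed from the other type IV pairs in chromosome as well as in CpG number, and these cannot be told apart here.

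Type VI collagens, which form beaded microfilaments around cells, had a new peak at 2 of 5 promoters (interval 5.27% to 85.3%). COL6A6 had a fold of 13.7 (21 fragments over 0.611) with its summit 7 bp upstream of the start, and COL6A5 had a fold of 9.93 (15 fragments) with its summit 183 bp downstream. Both lie near each other on chromosome 3 and have short CGIs of 316 and 266 bp. COL6A5 had the fewest promoter CpGs, 51, of any collagen with a peak. The main type VI genes, COL6A1, COL6A2 and COL6A3, had none. COL6A2 was the most CpG-rich collagen promoter without a peak, with 183 CpGs and a CGI of 1348 bp, and the nearest peak was 122790 bp away. On its chromosome, 21, 61.2% of coding promoters with a CGI had a new peak. COL6A1, on the same chromosome, had 108 CpGs that did not form a CGI by the criteria used, and had the shortest distance to a new peak, 6448 bp, of all collagens without a promoter peak. COL6A3 had 43 CpGs.

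FACIT collagens, which attach to the surface of fibrils, had a new peak at 5 of 10 promoters (interval 18.7% to 81.3%), with a median fold of 7.08. The highest fold was 11.2 at COL19A1 (17 fragments over 0.611), with the summit 911 bp downstream of the start in intron 1. That peak also lay within 1000 bp of an annotated start of LMBRD1, a neighbouring gene. COL14A1, COL21A1 and COL22A1 had folds of 7.62, 7.08 and 6.49, each with the peak over the start. COL12A1, found in tendon and muscle connective tissue, had the lowest of the class, 4.29, from 20 fragments over a local rate of 3.90. COL9A1, COL9A2 and COL9A3 code for the chains of type IX collagen of cartilage, and none had a new peak, although COL9A2 and COL9A3 had 118 and 169 CpGs and CGIs of 2141 and 1333 bp. COL16A1, with a CGI of 332 bp, and COL20A1, without a CGI, had no new peak either.

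The remaining classes are small. Of the 4 transmembrane collagens, COL13A1 had a fold of 9.09 at its start and a second peak of 3.22 further downstream (29 fragments over 8.33), and COL23A1 had 3.98, the lowest promoter fold of all collagens (25 fragments over 5.53). COL25A1, with a CGI and 127 CpGs, and COL17A1, a hemidesmosome component with 12 CpGs, had no new peak. Both multiplexins had one (interval 15.8% to 100%). COL15A1 had a fold of 9.31, and COL18A1, the precursor of endostatin and the collagen promoter with most CpGs, 233, had a fold of 6.52 in intron 2 and 5.03 upstream. The COL18A1 fold of 6.52 came from 18 fragments over a rate of 1.91, beside 24 over 0.611 at COL4A1. The counting intervals of these fragments, 10.7 to 28.4 and 15.4 to 35.7, overlapped. No order of fold by CpG number is therefore read at the top of the CpG range.

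None of the 3 short-chain collagens had a new promoter peak, too few to set against the 42.1% of all coding promoters. COL8A2 had a CGI and 136 CpGs, and COL8A1 and COL10A1, the latter a product of hypertrophic chondrocytes, had 55 and 12 CpGs and no CGI. Of the others, COL26A1 had a fold of 4.38 with its summit 793 bp downstream. COL7A1, which forms the anchoring fibrils of skin, had a CGI of 1019 bp and no new peak, and COL28A1 had 10 CpGs, the fewest of all collagens, and none.

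**Figure D1:**
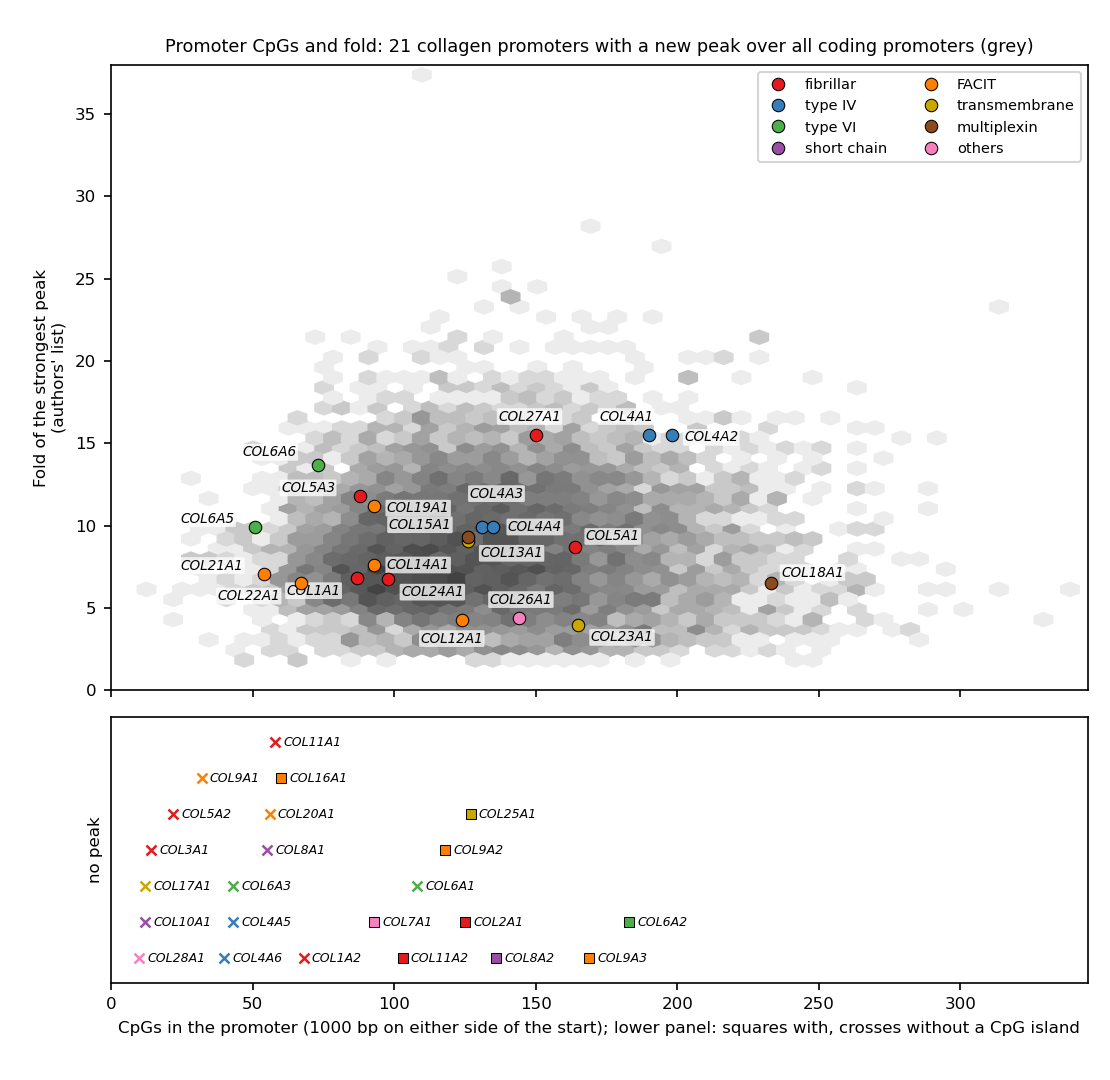
Fold of the strongest new peak against the number of CpGs in the promoter for the 21 collagen promoters with a peak, coloured by class, over all coding promoters with a peak (grey hexagons, darker for more promoters, log shading). The lower panel places the 23 collagens without a peak by their CpG number only, with squares for promoters with a CGI and crosses for those without. Their CpG numbers run from 10 to 183, and those of the collagens with a peak from 51 to 233.

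Within the collagens, promoters with a new peak had a median of 126 CpGs and those without had 58.0, beside 130 and 63.0 over all coding promoters. The distributions overlapped, since the 9 CGI promoters without a peak had a median of 125 CpGs (range 60 to 183). All collagens together had a median of 93.0, close to the 96.0 of all coding promoters. Among promoters with up to 64 CpGs, 2 of 15 collagens had a peak (13.3%, interval 1.66% to 40.5%), beside 2.77% of all. With 65 to 126 CpGs the collagen share was 10 of 16 (62.5%, interval 35.4% to 84.8%), beside 46.4%. With 127 or more it was 9 of 13 (69.2%, interval 38.6% to 90.9%), beside 76.2%. In each of these bands the share over all promoters lay inside the interval of the collagens.

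**Figure D2:**
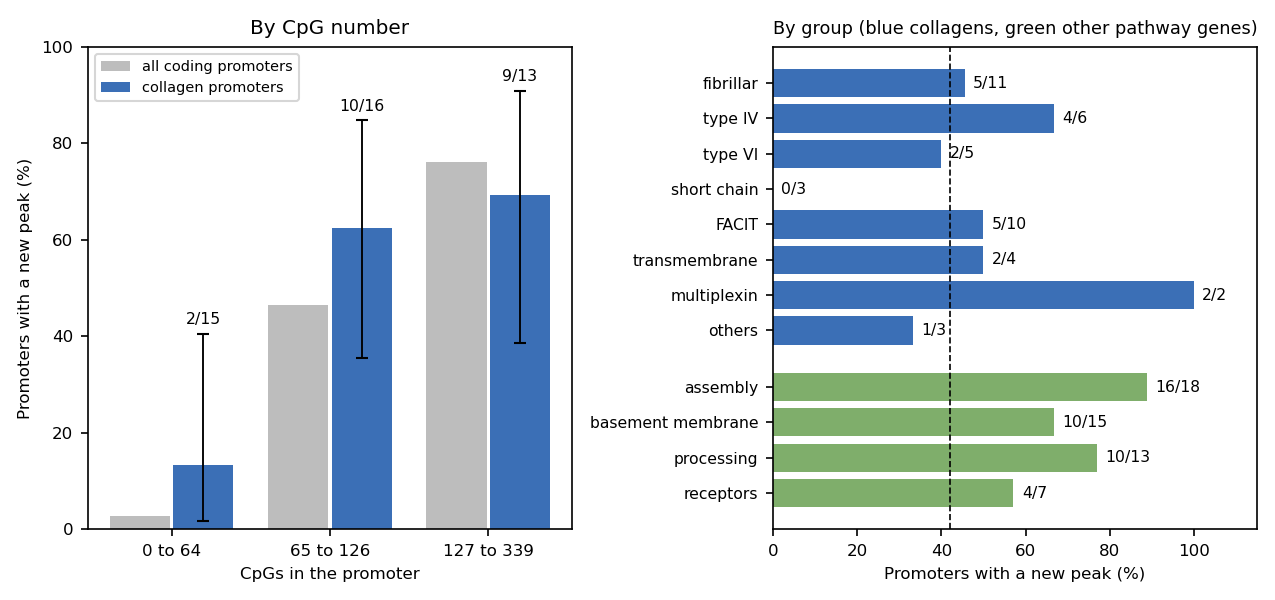
Left, percentage of promoters with a new peak by number of CpGs, for all coding promoters (grey) and collagens (blue, with exact 95% binomial intervals and counts). Right, the percentage in each collagen class (blue) and in each class of other collagen pathway genes (green), with counts, and with the 42.1% of all coding promoters as a dashed line. Short-chain collagens are at 0 of 3, and both multiplexins have a peak.

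The peak covered the start site at 16 of the 21 collagen promoters. The exceptions were COL12A1, COL18A1, COL19A1, COL26A1 and COL6A5, all with the peak downstream of the start or on both sides of it. Over all coding promoters with a peak, 64.4% had the start covered. The summit of the strongest peak lay in the 5′ untranslated exon of 9 collagen genes, in an intron of 4 and upstream of 8. Its median position was 32.0 bp downstream of the start, beside 165 bp over all coding promoters. Peaks had a median width of 554 bp and held a median of 51.0 CpGs, beside 594 bp and 62.0 CpGs. The 9 CGI promoters without a peak had their nearest new peak 11198 to 130729 bp away, and no collagen without a promoter peak had one within 5 kb of the start.

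Gene bodies, taken as the gene outside its own promoter, held few new peaks. There were 5, in 4 of the 44 collagens, over 6.64 Mb, that is 0.753 per Mb (exact 95% Poisson interval 0.245 to 1.76). Over all coding gene bodies there were 2.43 per Mb, above that interval, and 12.5% of coding genes had a body peak. Peaks and sequence shared by overlapping genes were counted for each gene, so this rate rests on 3276 overlaps from 3043 distinct peaks. Collagen genes are long, with a median body of 144 kb beside 26.4 kb. Of the gene bodies of 20 kb or more, 3 of 42 collagens had a peak, beside 16.9% of all. No interval was computed for the small counts of collagens with a body peak, so no difference is read from them. Of the body peaks over all coding genes, 26.6% lay at the canonical promoter of a coding gene, and none of the collagen body peaks did. Without such peaks the rate over all coding gene bodies, counted in the same way, was 1.79 per Mb. This comparison was added after the data had been seen. The rate was just above the upper bound of 1.76 for the collagens, and no difference is read from so narrow a margin. None of the 5 was left above the median fold of the list.

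The 2 body peaks with the highest fold lay in intron 2 of COL23A1, 234 and 256 kb from its start, with folds of 7.36 and 5.23, both above the 3.98 at the promoter of this gene. They had 18 fragments over a rate of 1.58 and 26 over 4.16, beside 25 over 5.53 at the promoter. Each body peak held 12 CpGs and neither was in a CGI. In COL4A2, a peak with a fold of 4.93 in intron 3 began beyond the promoter window, with its summit 1460 bp from the start, in a CGI of its own. In COL1A1, a peak with a fold of 4.30 lay in intron 2, 1909 bp from the start, within the CGI of the promoter and within 1000 bp of another annotated start of the gene. COL8A2 had the lowest fold, 3.06, in coding exon 4, from 36 fragments over a rate of 11.1. It was the only collagen with a body peak and no promoter peak, and 22 collagens had neither.

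The other genes of collagen biology were taken from a list of 53, comprising enzymes and chaperones of assembly, proteases and cross-linking enzymes, receptors, and partners in the basement membrane. A new peak was present at 40 of these promoters, or 75.5% (interval 61.7% to 86.2%), beside 42.1% of all. These promoters were richer in CpGs, with a median of 124 beside 96.0 over all coding promoters. Among all coding promoters with 111 to 126 CpGs, 65.1% had a new peak. The part of CpG number in the share of this list was not tested. Of the 53, 46 had a CGI, and within these the share was 40 of 46, or 87.0% (interval 73.7% to 95.1%), beside 57.7% of all coding promoters with a CGI. The list was chosen with earlier results of these data known. P3H4 and FKBP10 share a peak, so the 40 promoters stand for 39 distinct strongest peaks. The median fold was 8.79, beside 9.09 at the collagens. Of the assembly genes 16 of 18 had a peak, with the highest folds at COLGALT2 (16.1), a collagen galactosyltransferase, and P4HA1 (15.3), a prolyl hydroxylase subunit, and none at MIA3 and COLGALT1. Of the processing genes 10 of 13 had one, led by the protease TLL2 (16.8) and the enhancer of procollagen cleavage PCOLCE2 (13.6), with none at LOXL3, PCOLCE and ADAMTS14. Of the receptors 4 of 7 had one, led by the integrin genes ITGB1 (13.0) and ITGA1 (11.8), with none at ITGA10, DDR1 and DDR2. Of the basement membrane partners of type IV collagen 10 of 15 had one, led by NID1 (21), which codes for nidogen, and the laminin gene LAMC1 (14.2), and the genes without one included AGRN, LAMA2, LAMB2 and LAMB3. All 40 promoters with a peak held a CGI, as did the 21 of the collagens and 8281 of the 8364 coding promoters with a peak.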

How the data were processed

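HEK293 cells of 4 conditions gave 1 MBD-seq library per condition, of which the new peaks listed for Ab-3A3L (WT) were used. The other libraries were not analysed here. The submitters' processing notes name FastQC, Bowtie2, deepTools and MACS2, without settings, and the methods give hg19. The deposited list has 10 columns, including a score, a fold (ratio to the background), −log10 p-values and −log10 q-values, and the summit. The authors called these peaks as new compared with Untreated cells, and the values were used as listed. That the background of each fold came from the Untreated library is an inference, since the control setting is not given in the sources used here. All 12864 peaks lay within the GRCh37 chromosome lengths.

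The start of the canonical transcript in GENCODE 44 was used for 19881 coding genes, and 282 without one were left out. An overlap of 1 bp was counted. CGIs were rebuilt from the unmasked sequence (CpG scored 17, other bases -1; over 200 bp, GC of at least 50%, observed/expected over 0.6). Fragments k and rate were recovered from fold = (k + 1)/(rate + 1) and the Poisson p-value, with the listed −log10 p matched within 0.000403. Depth is known only at the peaks (median 18.0 fragments). Intervals are 95% exact binomial or Poisson and cover counting error only, and a share of 0 has its limit at 3 counts. No p-value was computed. Genes were named by rule, namely all collagens with their strongest promoter peak, and in the other lists the 2 highest folds per class and the genes without a peak, of which some items are not reported here. The members and lists were chosen with earlier results of these data known. The recovery of fragments, the CGI calls, the overlaps and the binomial interval were tested on simulated data. The fragment values were simulated from the same formula, so that test cannot show whether the formula holds. Alternatives covered thresholds, promoter width, overlap, start sites, CGI criteria and shared promoters. Software was samtools 1.23.1, pysam 0.24.0 and Python 3.11.15 with numba 0.67.0, scipy 1.17.1, pandas 2.3.3, numpy 2.4.6 and matplotlib 3.10.9.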

Additional observations from a re-analysis of the deposited data

How the results depend on the processing

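Of 33 alternatives to the counts and medians, 24 stayed within 1.5 times the value reported. At or above the median fold of the list, 13 collagen promoters, all with a CGI, 24 promoters of the other pathway genes and 0 collagen body peaks were left. With a −log10 q of at least 10, the numbers were 13 collagen promoters, 13 with a CGI, 26 of the other genes and 1 body peak. The shares over all coding promoters were 25.9% and 24.9% at these thresholds, and over those with a CGI 35.5% and 34.2%. Both thresholds removed the same 8 collagens, COL12A1, COL18A1, COL1A1, COL21A1, COL22A1, COL23A1, COL24A1 and COL26A1. With gene bodies beginning 2000 bp from the start, 3 body peaks were left. A promoter of 500 bp on either side lost COL19A1 and COL26A1. With the summit nearest to the start in place of the strongest peak, the fold was 5.33 at COL27A1 and 4.44 at COL1A1, and 19 of 21 promoters stayed within the limit. No paired analysis was possible because there was 1 library per condition. Without replicates no fold has an error beyond the counting of fragments.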
